A study of Homo sapiens with 18 samples.

Results

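The 10 genes of 1 transcriptional module were followed through the 3 data types of the series: the DNA-binding factors TEAD1, TEAD2, TEAD3 and TEAD4, their coactivators YAP1 and WWTR1 (the gene of the protein TAZ), and the cofactors VGLL1, VGLL2, VGLL3 and VGLL4. These 10 of the 22336 genes in the mRNA-seq table were chosen by name and were proposed with the mRNA response to trichostatin A (TSA), a histone deacetylase inhibitor, already in view. Their mRNA levels are therefore a description, and the authors' columns of the TSA contrast are not used. The regions studied were the enhancers and open chromatin sites whose centre lay within 100 kb of any annotated start site of a member in hg19, 103 of 94527 enhancers in all.

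All material came from LNCaP, 1 established human prostate adenocarcinoma line that keeps luminal features. WHG-STARR-seq, the genome-wide form of the assay STARR-seq, which reads enhancer activity from random genomic fragments carried on plasmids, had 1 input library and 2 output replicates harvested 72 h after transfection into medium with hormone-stripped serum and no phenol red. ATAC-seq, which marks accessible chromatin, had 3 cultures given 100 ng/ml TSA for 24 h and 3 given the vehicle DMSO for 24 h, after 72 h in medium of the same kind. The mRNA-seq had 3 cultures with TSA at the same dose and time and 3 with DMSO, from cells kept in the same way. It also had 3 untreated cultures, whose medium is not stated. The files hold values pooled or averaged over libraries, so no value below has an error between replicates, no test was run here, and the depth of each library is unknown. Luminal markers were high in the averages (FOLH1, 11.17 log2 CPM; KLK3, 8.04) and KRT14, TP63 and DCN were below 1 CPM (read counts scaled to library size), whereas KRT5 (6.23), VIM (5.88) and COL1A1 (6.77) were not; their part in any value below was not tested.

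TEAD proteins bind DNA through a conserved domain at the sequence GGAATG but activate transcription poorly by themselves, and depend on cofactors. YAP1 and TAZ are the coactivators held out of the nucleus when the Hippo kinases are active, and they drive growth and survival genes when they enter it. The vestigial-like proteins bind the same face of TEAD; VGLL4 is known as a competitor of YAP1 that represses TEAD targets, while VGLL1 to VGLL3 act as tissue-restricted partners.

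The sequences below are the enhancers and start-site regions on which the results turn, read from hg19. Each enhancer is the 300 bases around its centre on the plus strand. Capitals mark GGAATG (the TEAD motif) and TGANTCA (the AP-1 motif, bound by FOS and JUN dimers) on either strand; the forkhead motif TGTTTAC was also searched and does not occur in these windows. The first was the strongest enhancer near any of the 10 genes, the next ones carried a TEAD motif and lay near TEAD2 and VGLL4, and the last was the strongest in open chromatin.
VGLL3 closed enhancer, chr3:86986313-86986612: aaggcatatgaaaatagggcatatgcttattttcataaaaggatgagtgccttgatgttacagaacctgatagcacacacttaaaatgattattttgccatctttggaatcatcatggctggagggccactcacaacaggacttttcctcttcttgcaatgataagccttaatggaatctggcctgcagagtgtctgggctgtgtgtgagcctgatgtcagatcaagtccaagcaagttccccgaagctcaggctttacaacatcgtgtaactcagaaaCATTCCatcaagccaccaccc
TEAD2 closed enhancer, chr19:49775582-49775881: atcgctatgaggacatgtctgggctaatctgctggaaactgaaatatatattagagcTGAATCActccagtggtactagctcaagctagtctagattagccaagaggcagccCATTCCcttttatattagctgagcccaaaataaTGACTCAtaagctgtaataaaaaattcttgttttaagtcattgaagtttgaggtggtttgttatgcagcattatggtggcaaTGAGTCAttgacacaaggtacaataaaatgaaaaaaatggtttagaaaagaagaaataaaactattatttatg
VGLL4 closed enhancer, chr3:11802678-11802977: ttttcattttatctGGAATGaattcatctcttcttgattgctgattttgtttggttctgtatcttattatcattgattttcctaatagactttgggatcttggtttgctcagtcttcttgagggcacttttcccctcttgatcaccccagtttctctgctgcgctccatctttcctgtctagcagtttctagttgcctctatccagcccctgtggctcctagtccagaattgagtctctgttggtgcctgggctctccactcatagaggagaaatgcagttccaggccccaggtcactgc
TEAD3 open enhancer, chr6:35463510-35463809: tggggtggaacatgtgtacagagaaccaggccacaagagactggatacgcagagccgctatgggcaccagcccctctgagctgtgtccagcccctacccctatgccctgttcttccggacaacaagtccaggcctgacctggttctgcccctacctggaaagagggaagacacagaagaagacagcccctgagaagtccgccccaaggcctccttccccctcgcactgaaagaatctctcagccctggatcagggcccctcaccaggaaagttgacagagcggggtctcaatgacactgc

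The next 2 sequences are the 250 bases before the start site of the canonical transcript, written 5′ to 3′ on the strand of the gene, for VGLL2, whose start site had an ATAC-seq peak with TSA only, and for VGLL3, whose start-site peak had the highest ratio of TSA to vehicle score.
VGLL2 upstream, chr6:117586471-117586720, plus strand: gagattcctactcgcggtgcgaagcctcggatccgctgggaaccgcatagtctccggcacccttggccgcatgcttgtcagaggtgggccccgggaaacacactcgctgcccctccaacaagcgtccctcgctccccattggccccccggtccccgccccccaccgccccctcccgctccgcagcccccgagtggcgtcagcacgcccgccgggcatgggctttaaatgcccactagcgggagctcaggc
VGLL3 upstream, chr3:87040300-87040549, minus strand: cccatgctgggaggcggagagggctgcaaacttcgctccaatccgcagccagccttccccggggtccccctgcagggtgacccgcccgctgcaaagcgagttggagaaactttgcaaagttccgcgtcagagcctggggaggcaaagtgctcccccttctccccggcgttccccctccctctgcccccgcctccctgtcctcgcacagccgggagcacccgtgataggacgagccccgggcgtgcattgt
Both regions were rich in G and C, at 70% for VGLL2 and 67.6% for VGLL3, and neither held a TEAD motif, which 9.87% of 20833 genes have in this window. A match describes the letters and does not show that a factor was bound.

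The first question was which members the cells express. All 4 TEAD factors were at or above 1 CPM, with TEAD1 at 6.31 log2 CPM (79.6 CPM), TEAD2 at 4.07 (16.8 CPM), TEAD3 at 4.22 (18.7 CPM) and TEAD4 at 3.34 (10.1 CPM). These are the authors' averages over the libraries of their fit, not levels in vehicle alone, and in bulk RNA fewer expressing cells cannot be told apart from less RNA per cell. Per kb of exon, which allows genes to be compared, the order was TEAD1 at 3.04, TEAD2 at 2.64, TEAD3 at 2.61 and TEAD4 at 2.48 log2 CPM per kb. The 4 factors thus lay within 0.56 log2 units of each other on the per-length scale, and all were above the median of all genes, 1.50.

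The coactivators were far apart. YAP1 had 6.74 log2 CPM (107 CPM) and 4.24 log2 CPM per kb, higher than 82.7% of genes per length. WWTR1 had −1.44 log2 CPM (0.369 CPM), higher than 25.0% of genes, and −3.84 log2 CPM per kb, higher than 7.98%. The lowest value in the table is −2.62 log2 CPM. Genes at that value with short exons can rank above WWTR1 per length, so its per-length rank depends partly on exon length. On the per-length scale YAP1 exceeded its paralog WWTR1 by 8.08 log2 units, a gap that rests on a WWTR1 value not far above the lowest in the table.

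Of the cofactors, VGLL4 was the most abundant of all 10 genes per length, with 7.10 log2 CPM (138 CPM) and 4.78 log2 CPM per kb, higher than 88.0% of genes. VGLL2, a partner of TEAD in skeletal muscle, had 1.60 log2 CPM (3.04 CPM) and 0.45 log2 CPM per kb. VGLL3 had −0.41 log2 CPM (0.754 CPM), higher than 31.4% of genes, and −3.94 log2 CPM per kb, higher than 7.17%. That was the lowest per-length value of the members other than VGLL1, and it depends partly on the 11.6 kb of exon of VGLL3. VGLL1 stood at −2.62 log2 CPM, the lowest value in the table and one that 2019 genes share, so no level can be read for it. In all, 7 members were at or above 1 CPM and 3 below, beside 66.3% of all genes at or above it. The order per length was VGLL4, YAP1, TEAD1, TEAD2, TEAD3, TEAD4, VGLL2, then WWTR1 and VGLL3 with VGLL1 left unplaced; without an error it cannot be said which neighbours differ, and the values of TEAD2, TEAD3 and TEAD4 and those of WWTR1 and VGLL3 lay closest together.

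**Figure D1:**
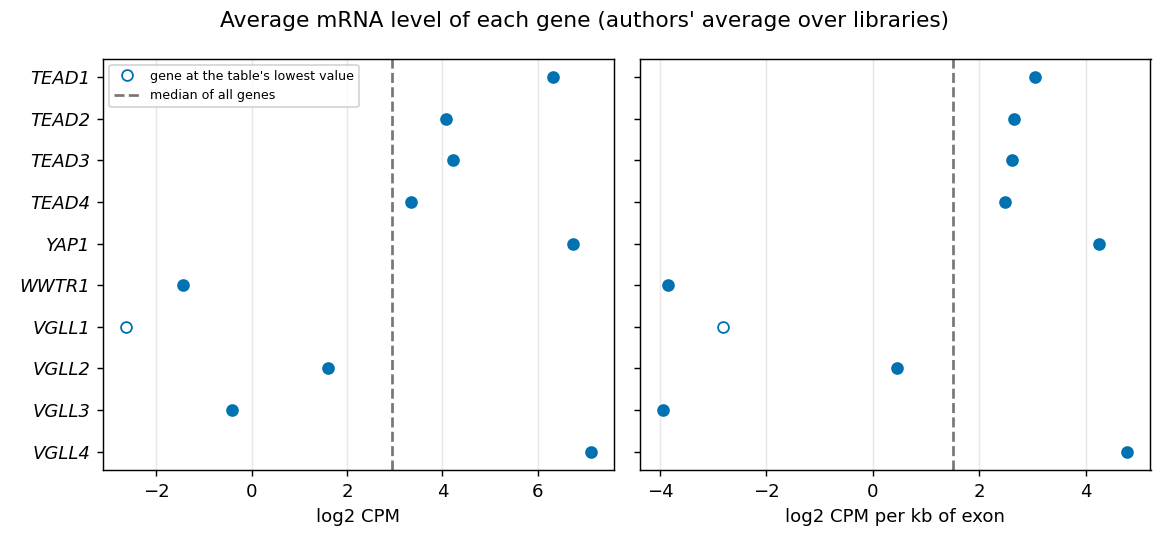
Average mRNA level of each gene in log2 CPM (left) and in log2 CPM per kb of exon (right), with 1 point per gene and no error because the authors' averages are pooled over libraries. VGLL4, YAP1 and the 4 TEAD genes lie above the median of all genes (dashed line; 2.94 and 1.50), WWTR1 and VGLL3 lie far below it, and the open point marks VGLL1 at the lowest value of the table.

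WHG-STARR-seq asked which DNA around these genes acts as an enhancer once taken out of its chromatin. Enhancers are split by the authors into open, those over a DNase I site of LNCaP, and closed, those without one. The DNase I sites came from other LNCaP cultures, of the ENCODE project, and from no sample of this series. The 103 enhancers comprised 19 open and 84 closed, an open share of 18.4% beside 12.7% of all enhancers. The 12.7% includes enhancers at any distance from a gene, so these shares are not a like comparison. The open share within 100 kb of the start sites of all genes is not given here. Whether that of the members is high or low for such windows therefore cannot be read. Over all genes the median within reach was 1 open and 6 closed enhancers per gene. Every member had a closed enhancer within reach (97.7% of genes do) and 7 of the 10 had an open one (68.8% of genes). The members without an open enhancer were YAP1, WWTR1 and VGLL2. Most enhancers lay in introns (66) or between genes (31), with 2 in promoters, 2 in coding exons, 1 in a 3′ UTR and 1 in a noncoding exon, and for 72 of them the member was the gene with the nearest start site.

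Fold enrichment is the value of the authors' MACS2 call, the output fragments at the summit plus 1 over the scaled input fragments plus 1. The intervals given with it are exact 95% Poisson intervals of the output count. They cover counting error only and treat fragments as independent. Each replicate was amplified in separately indexed PCRs, and identical fragments from different ones were all counted. The intervals may thus be too narrow even for counting error. The median was 3.10-fold near the members and 3.08-fold over all enhancers, so a typical enhancer around these genes had close to the strength of one elsewhere. For the open class the medians were 2.73 and 2.78, and for the closed class 3.18 and 3.10. Of the 103, 4 exceeded 5-fold, and they lay near VGLL3, TEAD1, TEAD2 and TEAD3. Among all enhancers of the same chromatin class, these folds exceeded 99.3%, 99.3%, 96.5% and 91.7%, in that order.

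VGLL4 and TEAD1, which had the longest windows, had the most enhancers. With only the most upstream start site of each gene, VGLL4 had 14 and TEAD1 had 9, the latter fewer than TEAD4 (11) and TEAD3 (10). VGLL4 had 24 (6 open, 18 closed) in a window of 352 kb around 6 start sites, or 68.2 per Mb, a density above that of 93.8% of genes. TEAD1 had 20 (1 open, 19 closed) in 401 kb, or 49.9 per Mb, beside a median of 40.0 per Mb over all genes. TEAD4 followed with 11 (4 open) and TEAD3 with 10 (4 open). The remaining genes had 4 to 8, namely 8 for VGLL2, 7 for TEAD2 with 2 open, 7 for WWTR1, 6 for YAP1, 6 for VGLL3 with 1 open and 4 for VGLL1 with 1 open. YAP1, although expressed well, thus had fewer enhancers per Mb (29.7) than TEAD3 (50.0) or VGLL4, and none of its 6 was open.

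**Figure D2:**
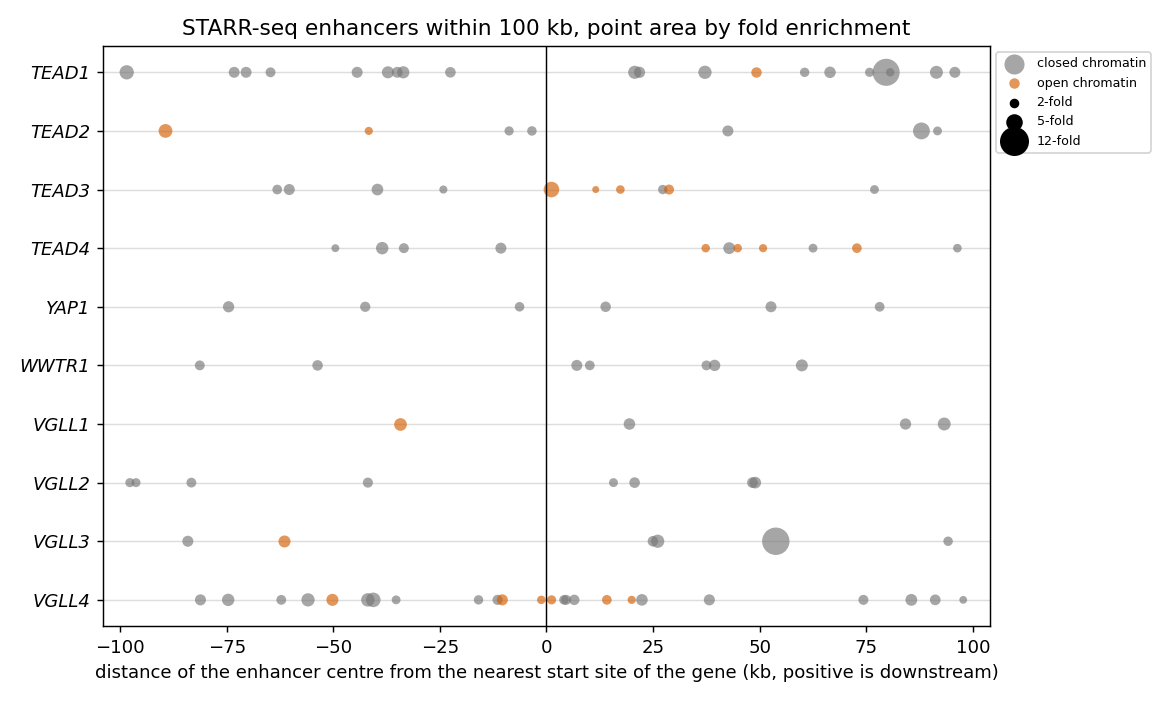
Each point is 1 WHG-STARR-seq enhancer, placed by the distance of its centre from the nearest start site of the gene in kb (positive is downstream) and sized by fold enrichment, in orange for open and grey for closed chromatin. The 2 largest points, 12.1-fold near VGLL3 and 11.9-fold near TEAD1, are closed; YAP1, WWTR1 and VGLL2 have grey points only.

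The strongest enhancer was a closed one near VGLL3, at chr3:86986043-86986882, 53.8 kb downstream of its start site and just beyond the end of the gene at 86987123 on the minus strand. Its fold was 12.1 (95% interval 10.0 to 14.6), from 113 output fragments over a scaled input value of 8.40. That was the lowest input value among the 103 enhancers, and 17 of them, on several chromosomes, share it. It thus acts as a floor and cannot be read as a count of input fragments at this site. The sequence printed above was unique, with a median of 1 copy in the genome for its words of 24 bases, and holds 1 TEAD motif. VGLL3 itself was below 1 CPM. Its strongest open enhancer, 61.5 kb upstream at chr3:87101370-87102167 in a noncoding exon of PPATP1, reached 3.74 (2.76 to 4.96) and held 2 TEAD motifs.

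A closed enhancer of almost the same strength lay 79.7 kb downstream of a start site of TEAD1, between genes at chr11:12980321-12981034, where the nearest gene was RASSF10. It had 11.9-fold enrichment (9.82 to 14.3) from 111 output fragments over the same lowest input value, and no TEAD motif. Of its 24-base words, 43.3% occurred 10 or more times in the genome. The single open enhancer of TEAD1 lay in its intron, 49.2 kb from a start site, at 3.06-fold (2.40 to 3.83). Among the closed enhancers in TEAD1 introns, 2 held 2 TEAD motifs each, with folds of 2.26 and 3.27.

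TEAD3 carried the strongest open enhancer of the 103, at chr6:35463282-35464037, with a centre 1.18 kb downstream of the start site in an intron. It had 142 output fragments over a scaled input value of 25.4, a fold of 5.42 (4.57 to 6.38), and the highest DNase I score of the TEAD3 enhancers, 0.559. No ATAC-seq peak of either condition covered it. The strongest closed enhancer of TEAD3 reached 3.59.

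Near TEAD2 the strongest enhancer was closed, at chr19:49775274-49776189, 88.0 kb downstream and nearest to MIR4324, with 6.07-fold enrichment (4.61 to 7.84), again over the lowest input value. It held 3 AP-1 motifs and 1 TEAD motif, which are in capitals in the sequence above. Its strongest open enhancer covered the promoter of PIH1D1, 89.3 kb upstream, at 4.53-fold (3.59 to 5.65), and lay in ATAC-seq peaks of both conditions. For TEAD4 the strongest closed enhancer fell in a coding exon of its neighbour TULP3 at 3.93-fold (2.93 to 5.17), and the strongest open one in its own intron at 2.73-fold (2.17 to 3.39). All 4 open enhancers of TEAD4 lay in its introns, between 37.4 and 72.8 kb from a start site, at 2.17 to 2.73-fold.

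The enhancers of the coactivator genes spanned a narrow range. Those of YAP1 ran from 2.71 to 3.41-fold, the strongest 74.5 kb upstream at chr11:101906397-101906876 with an interval of 2.35 to 4.79. Those of WWTR1 ran from 2.77 to 3.72-fold, the strongest in its intron at chr3:149315653-149316132 with an interval of 2.61 to 5.16 and a TEAD motif in its central 500 bases. The intervals of the strongest YAP1 and WWTR1 enhancers overlapped, so counting error does not separate these 2. Both folds rest on the lowest input value described above.

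Among the other VGLL genes, VGLL4 had its strongest closed enhancer at chr3:11802406-11803250, 40.6 kb upstream, at 4.93-fold (3.71 to 6.42) with 1 TEAD motif. Its strongest open one, 50.2 kb upstream at chr3:11812110-11812703, reached 3.76-fold (3.10 to 4.51) from 113 output fragments and lay in ATAC-seq peaks of both conditions. VGLL4 also had the only enhancer of the 103 that reached a member's own start site, defined as 1000 bases upstream to 100 downstream. It was open, at chr3:11611361-11611840, with 2.28-fold (1.76 to 2.90). The start site was an inner one, neither the canonical start at 11685389 nor the upstream start at 11762220. The enhancer's centre lay 1.20 kb upstream of it, in a VGLL4 intron and in no ATAC-seq peak of either condition. Of the 10 members, 1 thus had an enhancer at a start site, beside 24.6% of genes. For VGLL1 the strongest closed enhancer, 93.3 kb downstream, had 4.15-fold (2.97 to 5.66), and the strongest open one, in an intron of HTATSF1, had 4.04-fold (2.88 to 5.53). Every VGLL1 enhancer had the lowest input value described above. VGLL2 had closed enhancers only, from 2.44 to 3.58-fold, the strongest in an intron of ROS1 at 3.58 (2.51 to 4.96).

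Motifs were searched over the 500 bases around each centre. A TEAD motif occurred in 24 of the 103 enhancers (23.3%), beside 26.1% of all enhancers. AP-1 motifs occurred in 12 (11.7%, beside 17.7%) and the forkhead motif in 7 (6.8%, beside 7.33%). The enhancers around the TEAD genes and their cofactors therefore held the TEAD motif about as often as enhancers in general. The most TEAD motifs in 1 enhancer, 3, were in a closed one 97.7 kb upstream of VGLL2 at chr6:117488790-117489269, which had 2.52-fold enrichment (1.89 to 3.30).

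The ATAC-seq lists asked which sites were accessible with vehicle and with TSA. Within 100 kb of the members the vehicle list held 32 peaks and the TSA list 41. Of the TSA peaks, 17 (41.5%) overlapped no vehicle peak, beside 32.8% of all TSA peaks, and of the vehicle peaks 8 (25%) overlapped no TSA peak, beside 28.8%. The difference in number was largest in the VGLL1 and VGLL2 neighbourhoods, where the vehicle list had 4 and 2 peaks and the TSA list 7 and 7. Most of these 1-condition peaks were small. The TSA list starts at a score of 0.0377 and the vehicle list at 0.0390, and only 4 of the 17 TSA-only peaks and 2 of the 8 vehicle-only peaks scored at least 1.5 times the lowest score of the other list. The share of all 1-condition peaks that pass this rule is not given here, so it is unknown whether those near the members were unusual.

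**Figure D3:**
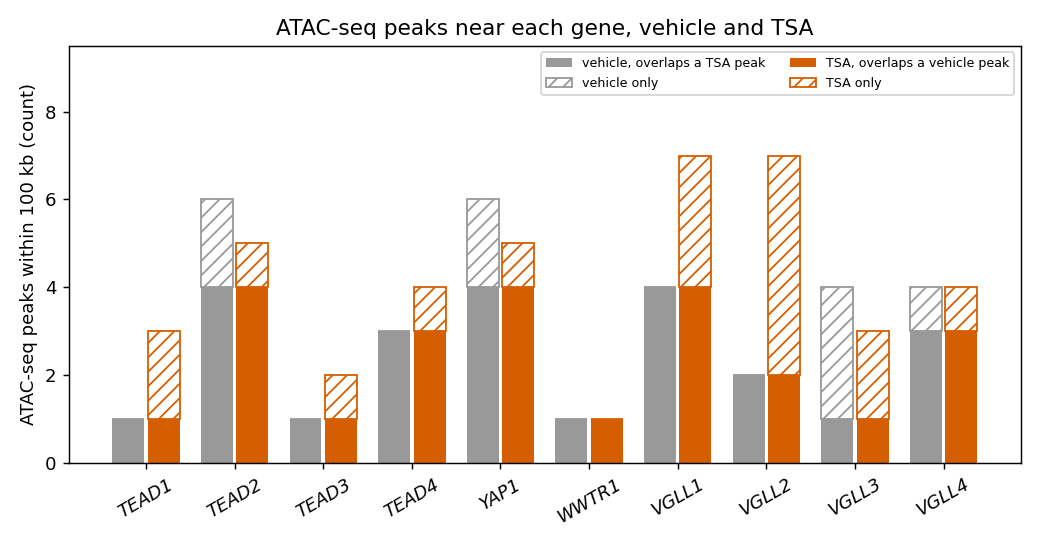
Number of ATAC-seq peaks within 100 kb of each gene in the pooled vehicle list (grey) and the pooled TSA list (orange), with hatching for peaks that overlap none of the other list. VGLL2 has 2 vehicle and 7 TSA peaks, VGLL1 has 4 and 7, and YAP1, TEAD2 and VGLL3 have more vehicle than TSA peaks.

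At the start sites, 6 members had a vehicle peak (55.9% of genes) and 7 a TSA peak (60.3%). Genes below 1 CPM had a vehicle peak at their start in 15.5% of cases and genes at or above it in 75.3%. TEAD1, TEAD2, TEAD4, YAP1 and VGLL4 were at or above 1 CPM and had one. TEAD3 was at 4.22 log2 CPM with none in either list, whereas VGLL3, below 1 CPM, had one in both. WWTR1 and VGLL1 had none in either list.

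Peak scores are those of the authors' Fseq calls on pooled libraries, and the log2 ratio of TSA to vehicle is centred on the median of all 27561 shared TSA peaks, 0.09. The start-site peak of TEAD1 scored 0.145 with TSA and 0.0914 with vehicle, a centred log2 ratio of 0.57. That of VGLL3 scored 0.173 and 0.0880, a ratio of 0.88 that exceeded 97.3% of shared peaks and was the largest among the members. That of VGLL4 at its upstream start scored 0.120 and 0.0866, a ratio of 0.37. Of these 3 ratios, only that of VGLL3 passes 1.5-fold. TEAD2 scored 0.153 with TSA and 0.127 with vehicle (ratio 0.17), and TEAD4 scored 0.0781 and 0.0750 (ratio −0.04, which takes the other sign, 0.0576, without centring). YAP1 was the only start site that was lower with TSA both with and without centring, with 0.118 and 0.141 and a ratio of −0.34.

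VGLL2 had a start-site peak in the TSA list only, at chr6:117585536-117587639 with a score of 0.0495, which is under 1.5 times the lowest score of the vehicle list, 0.0390. Its sequence upstream of the start is printed above. VGLL4 had a second TSA peak with no vehicle peak, at an inner start site, which is that of its canonical transcript. The score of this peak, 0.0380, was near the lowest of the list. The canonical start of VGLL4 thus had no vehicle peak, and the ratio given above for VGLL4 belongs to its upstream start.

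**Figure D4:**
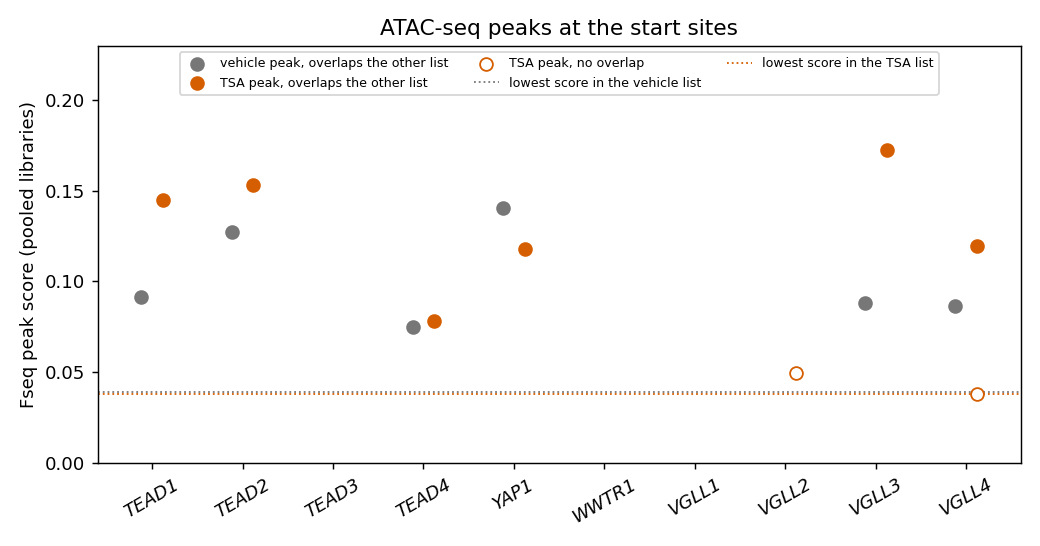
Fseq score of each ATAC-seq peak at a start site in the pooled vehicle list (grey) and TSA list (orange); open circles overlap no peak of the other list, and dotted lines give the lowest score of each list. The score is higher with TSA at TEAD1, TEAD2, VGLL3 and the upstream start of VGLL4, nearly equal at TEAD4 and lower at YAP1. Peaks are found with TSA alone at VGLL2 and at the canonical start of VGLL4. No peak exists at TEAD3, WWTR1 or VGLL1.

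Over the 24 shared TSA peaks within reach, the median centred log2 ratio was 0.01 and the range −1.15 to 0.88. A score at least 1.5-fold higher with TSA was seen for 2 of them (7.87% of all shared peaks), the VGLL3 start site and the promoter of CFAP300, 62.9 kb upstream of YAP1, at 0.0782 against 0.0475 (ratio 0.63). Without centring 4 peaks were at least 1.5-fold higher (11% of all shared peaks), those of the TEAD1 start and of the TULP3 promoter near TEAD4 being the others, and 2 were lower (7.55%). The TEAD1 start had the next highest ratio. A score at least 1.5-fold lower was seen for 2 (10% of all shared peaks), both near VGLL1. The first lay 78.4 kb upstream at chrX:135535437-135536450, where the score was 0.0532 with TSA and 0.111 with vehicle (ratio −1.15). The second lay 45.8 kb downstream at chrX:135659645-135660665, with 0.0428 and 0.0684 (ratio −0.77). The YAP1 start had the next lowest ratio. Around VGLL1, which had no readable mRNA level, peaks thus differed in both directions, with all 4 shared peaks lower with TSA and 3 others called with TSA alone. In the authors' merged sites, which join the peaks of both conditions, the TSA-only ones 88.4 kb upstream and 70.2 kb downstream averaged −0.54 and −0.62 log2 CPM. These averages exceeded 0.37% and 0.22% of merged sites, so few reads lay behind these peaks. The one 3.25 kb upstream averaged 2.56, above 20.7%.

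High scores among the TSA-only peaks were found near VGLL2 and VGLL1. The peak 79.3 kb downstream of VGLL2 at chr6:117665490-117666541 scored 0.0820. Another lay 3.25 kb upstream of VGLL1 at chrX:135610687-135611565 with 0.0674.

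The highest vehicle-only scores lay 86.0 kb upstream of VGLL3 (0.0703), 99.2 kb downstream of TEAD2 (0.0685) and 78.9 kb upstream of VGLL3 (0.0509). In average read count the TEAD2 site had only 0.475 log2 CPM, above 4.96% of merged sites. The VGLL3 sites had 3.28 and 3.19, above 41.8% and 39.0%. VGLL3 had the most vehicle-only peaks of any member, 3, all upstream of the gene, while its start-site score was higher with TSA. An open enhancer in the ATG7 intron 14.2 kb downstream of a VGLL4 start site lay in a vehicle-only peak, with 2.76-fold enrichment (2.27 to 3.32). In all, 4 of the 19 open enhancers lay in a vehicle peak and 3 in a TSA peak, beside 37.8% and 42.4% of all open enhancers.

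The members were set in their pathway by lists of genes chosen by function. Of 26 symbols of Hippo kinases and adaptors, older and newer names of a gene counted separately, 23 were in the table. All were at or above 1 CPM (66.3% of all genes), with a median of 5.10 log2 CPM. Of the 23, 20 had a vehicle peak and 21 a TSA peak at a start site (55.9% and 60.3% of all genes). Among genes at or above 1 CPM, as all of these were, 75.3% had a vehicle peak there. The highest per length were STK3, the MST2 kinase (4.10 log2 CPM per kb), MAP4K4 (4.09) and TAOK2 (4.01), and the lowest were the atypical cadherins FAT4 (−2.04) and DCHS1 (−1.71), followed by WWC2 (0.02). Enhancers at a start site were found for 8 of them, namely MAP4K4, TAOK2, MOBKL1A, LATS1 (3.89-fold, open), STK4, AMOTL1, MOBKL1B and FRMD6 (6.84-fold, closed), beside 24.6% of all genes. The kinases LATS1, LATS2, STK3 and STK4, which act upstream of YAP1, were thus all at or above 1 CPM.

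Of 25 symbols of YAP, TAZ and TEAD target genes, counted in the same way, 23 were in the table, of which 14 were at or above 1 CPM (66.3% of all genes), with a median of 2.87 log2 CPM, and 14 had a start-site peak in each condition (55.9% of all genes with vehicle and 60.3% with TSA). The highest per length were IGFBP3 (6.57 log2 CPM per kb), GADD45A (3.18) and BIRC5 (3.08), and the lowest RBMS3 (−5.55), TGFB2 (−4.05) and the receptor kinase AXL (−3.91). CTGF, a classical target, averaged −1.21 log2 CPM and CYR61 3.22. Enhancers at a start site were found for GADD45A (4.29-fold, open), BIRC5 (3.56, open), AMOTL1 (2.89, closed), DLC1 (3.10, closed) and AXL (4.29, closed), 5 of the 23 beside 24.6% of all genes. AMOTL1, AMOTL2, LATS2 and PTPN14 stand in both lists.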

How the data were processed

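For WHG-STARR-seq, the authors aligned reads to hg19 (Bowtie) and kept uniquely mapped fragments that were distinct within each separately indexed PCR of a replicate. The same fragment from different indexed PCRs counted each time. They then pooled both output replicates and called enhancers with MACS2 against the input at a q under 0.05. Their deposited lists give a fold (a ratio of output plus 1 over scaled input plus 1), a −log10 p and a −log10 q per enhancer, and the score of an overlapping DNase I site for the open class. For ATAC-seq, the authors called peaks with Fseq, and the deposited lists hold a score per peak over the pooled libraries of a condition. The deposited tables of the authors' TSA comparisons, of genes and of merged ATAC-seq sites, hold a log2 fold change, a likelihood ratio, a p and a q, none of which are used here, and an average in log2 CPM, which is. Reads of mRNA-seq were mapped with TopHat and counted per RefSeq gene, and both tables come from edgeR as run by the authors. The sources used here name no versions. No value per library was used here, so depth and replicate error are unknown, and the precision of a fold is at best that of its output count.

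Start sites came from basic-set transcripts of GENCODE on GRCh37 for 20833 of 22336 genes (57949 sites), matched by symbol or older symbol, and a region belonged to a member within 100 kb of its centre. Exon length is the union of these transcripts' exons. Output and scaled input fragments at a summit were recovered from the authors' fold and p, to within 9.3e-05 in −log10 p. ATAC-seq peaks sharing at least 1 base were paired, and log2 ratios of score were centred on the median of all pairs. A fold of 1.5 marked a difference. Words of 24 bases were counted over the whole genome on both strands. Python 3.11.15, pandas 2.3.3, scipy 1.17.1, matplotlib 3.10.9 and pysam 0.24.0 were used, and the recovery, pairing and centring were tested on simulated data. The members, gene lists and named regions were chosen with earlier results of these data known. Named regions are the strongest open and closed enhancer of each member, those at a start site, start-site peaks, the 3 highest and lowest score ratios and the highest scores found in 1 condition only, up to 3 in each; of each other list, the 3 highest and 3 lowest genes per length and those with an enhancer at the start. CTGF and CYR61, enhancers with several TEAD motifs and those inside an ATAC-seq peak were named after their values were seen. Some genes, regions and sequences are not reported here.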

Additional observations from a re-analysis of the deposited data

How the results depend on the processing

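A distance of 50 kb left 58 of the 103 enhancers, 22 TSA peaks and 19 vehicle peaks, with an open share of 24.1% and a median of 3.06-fold. A q under 1e-05 left 93 enhancers with an open share of 17.2%, and only the most upstream start sites left 81, with TEAD1 at 9 and VGLL4 at 14. The longer motif GGAATGT occurred in 7.77% of the enhancers and GGAATG anywhere in the enhancer in 25.2%. The shares of all enhancers under these 2 settings are not given here. With equal numbers of peaks per condition, 38 TSA and 32 vehicle peaks remained within reach, 14 and 8 of them in 1 condition only. Without centring, the median ratio of shared peaks near the members was 0.107 in place of 0.0143, and 4 peaks in place of 2 were at least 1.5-fold higher with TSA, a count added after seeing the data. The median level percentile of the members was 56.3 among all genes, and 41.6 for the 7 members at or above 1 CPM among such genes. The start-site ratio of TEAD4 reversed to 0.0576 without centring and to 0.484 percentile points as a difference of score percentiles; the other 5 start-site ratios kept their sign in every alternative run. The order of the members per length was the same with the longest transcript. No library could be left out and no paired analysis was possible because every file holds values pooled or averaged over libraries. Peaks with scores near the lowest of a list are the least certain. The 17 of the 103 enhancers with a scaled input of 8.40 share the lowest value found. Their folds, among them the highest near VGLL3, TEAD1 and TEAD2, rest on that floor and not on a local input count.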

Other observations

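The merged ATAC-seq sites of the authors' table carry an average read count, in log2 CPM over the libraries of their fit. Of the 49 such sites within 100 kb of the members, the highest averages were at the upstream start site of VGLL4 (6.20 log2 CPM, above 96.6% of merged sites) and the start site of TEAD2 (6.18). YAP1 (5.98), VGLL3 (5.55), TEAD4 (5.53) and TEAD1 (5.50) followed among the start sites. The site at the start of VGLL2, which was called with TSA alone, averaged 4.29 log2 CPM, above 69.5% of merged sites. That at the canonical start of VGLL4 averaged 3.12, above 36.9%. The start-site average of VGLL3 was thus close to those of TEAD1 and TEAD4, on a scale that is not corrected for site length, while its mRNA averaged below 1 CPM.

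Repeated sequence was found at 7 of the 103 enhancers, where at least 50% of the 24-base words around the centre occurred 10 or more times in the genome. All 7 were closed, as were 84 of the 103, and the share of repeated sequence over all enhancers was not computed. The enhancers of 4.30-fold in a VGLL3 intron and of 3.41-fold upstream of YAP1 were among them.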
